A study of Erigeron canadensis with 32 samples.

Results

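The GH3 amido synthetase genes of *Erigeron canadensis* (horseweed) described here are 8 gene models, chosen by their identifiers out of the 54498 genes of the count table. The paper lists these GH3 genes as differentially expressed in the same libraries, so the calls below are not independent of that listing. Not every gene is listed for every herbicide and time, and the paper's calls differ in part from those below. The paper also measured HW_53227_g by quantitative PCR in plants sprayed separately, and reports that those results matched its sequencing values. Their names come from the best *Arabidopsis thaliana* hit in the deposited annotation: GH3.1 for HW_8261_g, HW_53227_g and HW_16576_g, WES1 for HW_7406_g and HW_40463_g, DFL1 for HW_21289_g, DFL2 for HW_35545_g and JAR1 for HW_2486_g. All plants were rosettes of a glyphosate-resistant biotype, and RNA came from a single leaf per plant. Water with surfactant (the control), 2,4-D, dicamba and halauxifen-methyl, each herbicide with surfactant and at its own field rate, were each sampled 1 and 6 h after treatment (HAT), with 4 separate plants and so 4 libraries in each of the 8 groups. 2,4-D is a phenoxyacetic acid, dicamba a benzoic acid and halauxifen-methyl the methyl ester of a picolinic acid, and all are synthetic auxins.

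GH3 enzymes join an amino acid to a plant hormone. In *A. thaliana*, the enzymes of the GH3.1, WES1 and DFL1 type conjugate indole-3-acetic acid, the main natural auxin, and most of the conjugates serve to store it or send it to breakdown. Their genes are classic early auxin targets, switched on when auxin brings about the loss of AUX/IAA repressors. JAR1 works on another hormone and makes jasmonoyl-isoleucine, the active form of jasmonate, and DFL2 has been linked to jasmonate conjugation and to hypocotyl growth in light.

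Library totals ran from 12588842 to 29111958 counts, so that 3 counts, the most that a count of 0 allows, correspond to 0.113 to 0.285 CPM, the reads of a gene scaled to a common library size. CPM were taken on normalized library sizes, and CPM per kb of coding sequence is used wherever genes are compared with each other. Of the markers of leaf mesophyll, 13 genes were annotated and 2 of them had no count. All 6 genes of the root list were at 0 in every library. At 6 HAT the summed mesophyll markers were at 49994 to 86370 CPM in water and at 13704 to 42149 CPM over the herbicide libraries. The flower and meristem list was at 2.43 to 4.67 CPM in water and at 8.35 to 44.7 CPM after herbicides at that time, of which a single gene with the best hit AP3 gave a mean of up to 33.5 CPM, and 6 of its 14 genes were at 0 throughout. The part of these shifts in the results below was not tested, and in whole leaves fewer cells of a type and less RNA per cell cannot be told apart.

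The 8 genes lie on 8 contigs of the draft assembly, and positions are given within the contig. HW_8261_g runs from 6854 to 8970 on its contig, on the minus strand, with 3 coding exons and 1803 coding bases. HW_53227_g (2989 to 5045, minus strand, 1794 coding bases) and HW_16576_g (15436 to 18100, minus strand, 1803 coding bases) have the same number of coding exons. HW_7406_g (3084 to 5361, minus strand) has 4 coding exons and 1767 coding bases, and HW_40463_g (3429 to 6149, plus strand) has 3 coding exons and 1815 coding bases. HW_21289_g (1392 to 3803, plus strand, 1743 coding bases) and HW_35545_g (2441 to 10968, plus strand, 1434 coding bases) have 4 coding exons each. HW_2486_g (1281 to 3401, plus strand) has 3 coding exons and 1722 coding bases. The models start with a start codon and end with a stop codon, and the predicted proteins are 477 residues long for HW_35545_g and 573 to 604 for the other 7.

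At 6 HAT, 5 of the 8 genes were higher than in water after 2,4-D and after dicamba, and 4 were higher after halauxifen-methyl. HW_2486_g, 1 of the genes with the best hit JAR1, was lower after each herbicide. These calls used edgeR's quasi-likelihood test with a Benjamini-Hochberg adjusted p of at most 0.05. Over all tested genes, 10.3% (2,4-D), 5.64% (dicamba) and 8.55% (halauxifen-methyl) were called higher, and 9.41%, 3.96% and 6.13% lower. Of the 8 genes, 7 passed the low-count filter in each of these comparisons. HW_16576_g was tested for 2,4-D and dicamba only and HW_21289_g for halauxifen-methyl only. Over the 6 genes tested for every herbicide the median log2 fold change was 5.29 for 2,4-D, 5.19 for dicamba and 5.27 for halauxifen-methyl, beside 0.02, 0.06 and 0.05 over all tested genes. All 4 libraries of the herbicide were above all 4 of water for 5 members after each herbicide, beside 14.2%, 9.66% and 13.7% of the tested genes, and below for 2, 1 and 1, beside 12.1%, 8.12% and 9.71%. The 3 comparisons share the same 4 water libraries, and genes that were high in 1 group were those that could pass the filter. The 8 genes were also chosen with results of these libraries known, so their counts beside these shares are no independent test. Of the GH3 genes outside the 8, 1 of 4, 1 of 5 and 1 of 5 tested were called, each higher.

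**Figure D1:**
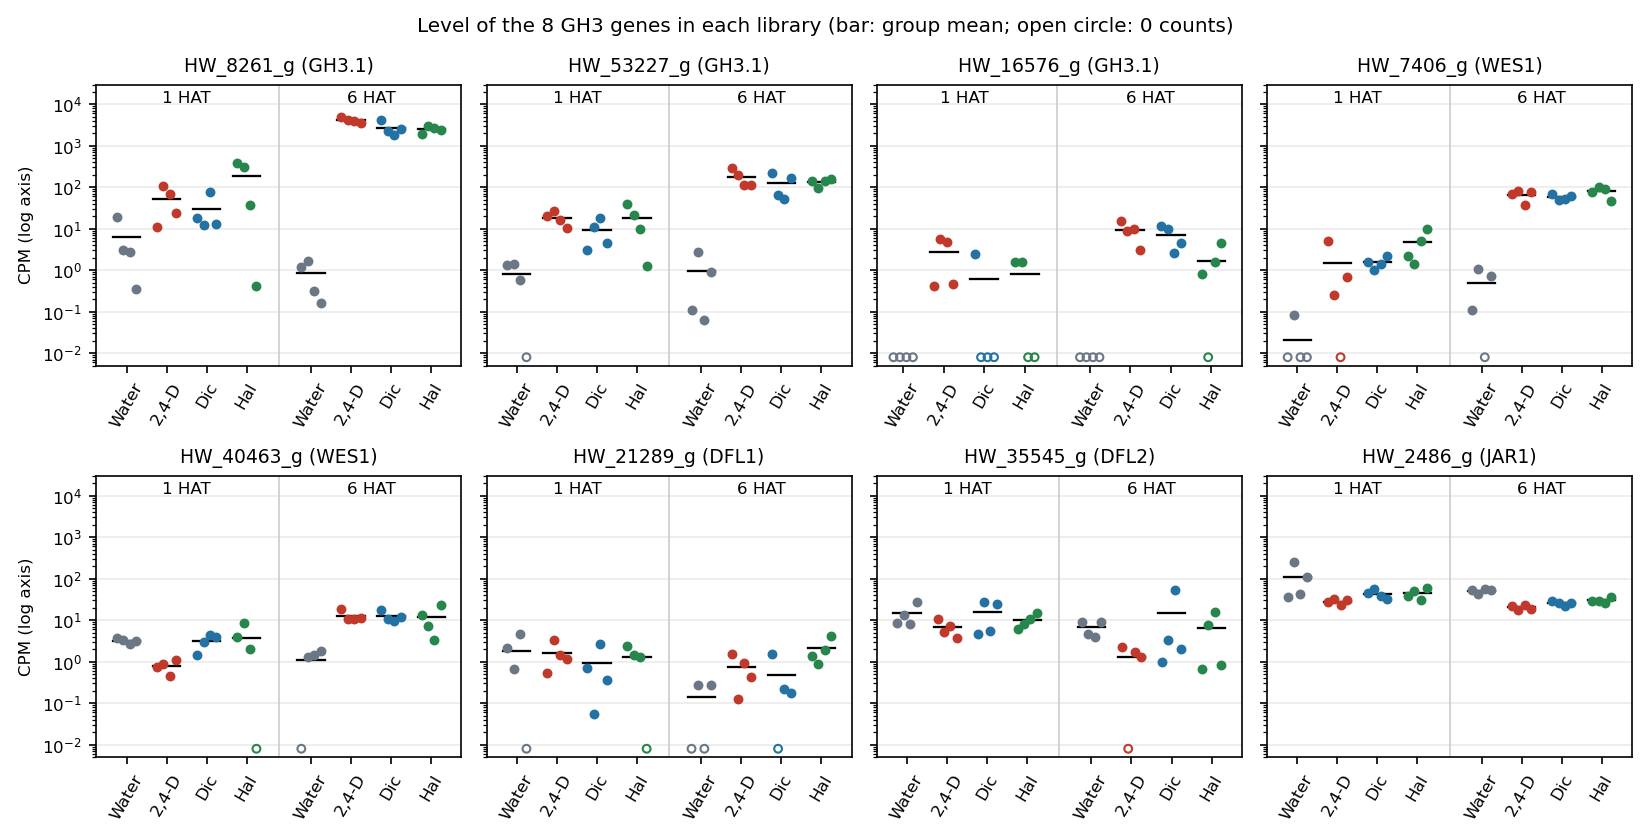
Level of each of the 8 GH3 genes in the 32 libraries, in CPM on a log axis, with water in grey, 2,4-D in red, dicamba in blue and halauxifen-methyl in green. Points are libraries, bars are group means and open circles are libraries with 0 counts. At 6 HAT the herbicide libraries of HW_8261_g sit between 1816 and 4921 CPM and its water libraries between 0.166 and 1.70 CPM.

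Per kb of coding sequence, HW_8261_g had the highest level of the GH3 genes in each herbicide group at 6 HAT. In water at 6 HAT its libraries held 1.17, 1.70, 0.313 and 0.166 CPM. After 2,4-D they held 4921, 4295, 4018 and 3524 CPM, after dicamba 4116, 2219, 1816 and 2493 CPM, and after halauxifen-methyl 1954, 2944, 2707 and 2444 CPM. Every herbicide library was far above the highest water library, with 2,4-D replicate 1 the highest of all. The log2 fold changes were 12.26 (SE 0.53, adjusted p = 1.31e-07), 11.62 (SE 0.69, adjusted p = 5.06e-06) and 11.52 (SE 0.65, adjusted p = 1.25e-05) for 2,4-D, dicamba and halauxifen-methyl by the quasi-likelihood test. Ordered by group mean, its levels ran from Water 6 HAT (0.837 ± 0.727 CPM, SD, n = 4) through Water 1 HAT (6.22 ± 8.45), Dicamba 1 HAT (30.4 ± 31.5), 2,4-D 1 HAT (53.4 ± 45.1) and Halauxifen-methyl 1 HAT (183 ± 193) to Halauxifen-methyl 6 HAT (2512 ± 424), Dicamba 6 HAT (2661 ± 1009) and 2,4-D 6 HAT (4189 ± 583). Each pair of neighbours in this order overlapped in range except Halauxifen-methyl 1 HAT and Halauxifen-methyl 6 HAT.

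The other genes with the best hit GH3.1 were induced to lower levels. HW_53227_g held 0.111, 2.69, 0.0626 and 0.884 CPM in water at 6 HAT. It held 287, 197, 114 and 114 CPM after 2,4-D, 216, 63.7, 53.4 and 170 CPM after dicamba, and 145, 97.7, 144 and 156 CPM after halauxifen-methyl. All 12 herbicide libraries lay above the 4 water libraries, with log2 fold changes of 7.54 (SE 0.71), 7.07 (SE 0.89) and 7.15 (SE 0.78) and adjusted p of 2.18e-05, 0.000441 and 0.000258 by the quasi-likelihood test.

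HW_16576_g had 0 counts in all 8 water libraries of both times. At 6 HAT it held 15.4, 8.98, 10.02 and 2.99 CPM after 2,4-D, 11.5, 10.1, 2.62 and 4.53 CPM after dicamba, and 0.825, 0, 1.59 and 4.45 CPM after halauxifen-methyl. With water set at 3 counts per library, the 2,4-D mean was at least 54.6-fold higher, the dicamba mean at least 41.8-fold higher and the halauxifen-methyl mean at least 10.01-fold higher. The quasi-likelihood test called it higher after 2,4-D (adjusted p = 0.000228) and dicamba (adjusted p = 0.00141). After halauxifen-methyl it did not pass the low-count filter, and 1 of the 4 libraries was at 0 like the water libraries (two-sided exact permutation p = 0.143).

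The genes with the best hit WES1, an auxin conjugating enzyme that in *A. thaliana* also acts on salicylic acid, both rose at 6 HAT. HW_7406_g held 0.111, 1.0997, 0 and 0.718 CPM in water, and 68.9, 80.4, 37.4 and 75.4 CPM after 2,4-D. After dicamba it held 69.7, 49.5, 51.8 and 61.5 CPM, and after halauxifen-methyl 78.7, 102, 89.3 and 47.6 CPM. No library overlapped with water, and the herbicide groups lay within a narrow band, at log2 fold changes of 7.05 (SE 0.61), 6.89 (SE 0.67) and 7.31 (SE 0.68) with adjusted p of 1.13e-05, 8.68e-05 and 0.000105 by the quasi-likelihood test.

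HW_40463_g changed less. It held 0, 1.32, 1.44 and 1.77 CPM in water at 6 HAT, 18.9, 10.7, 10.96 and 11.3 CPM after 2,4-D, 17.9, 10.7, 9.77 and 11.8 CPM after dicamba, and 13.2, 7.17, 3.31 and 23.4 CPM after halauxifen-methyl. Every herbicide library was above every water library, with the widest spread after halauxifen-methyl. The log2 fold changes were 3.53 (SE 0.77, adjusted p = 0.00688), 3.496 (SE 0.84, adjusted p = 0.0223) and 3.397 (SE 0.96, adjusted p = 0.0385) by the quasi-likelihood test. The dicamba call was lost (adjusted p = 0.0588 to 0.0778) without Water replicate 2 or 3 or Dicamba replicate 1 or 4. The halauxifen-methyl call was lost (adjusted p = 0.0574 to 0.108) without Water replicate 2, 3 or 4 or Halauxifen-methyl replicate 1, 2 or 4.

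HW_21289_g, the DFL1 gene of the 8, stayed near the lower limit of the counts. In water at 6 HAT it held 0, 0.275, 0 and 0.276 CPM, and after halauxifen-methyl 1.39, 0.877, 1.93 and 4.20 CPM. The latter libraries were all above water, at a log2 fold change of 3.88 (SE 1.24) that missed the threshold (adjusted p = 0.0641) and passed it without Water replicate 1 (adjusted p = 0.0419), in DESeq2 (adjusted p = 0.00202) and in edgeR's exact test (adjusted p = 0.00613). The paper lists the gene as higher after halauxifen-methyl at 6 HAT. After 2,4-D its range was 0.130 to 1.54 CPM and after dicamba 0 to 1.52 CPM. Both overlapped with water, and the gene was filtered out of those fits (two-sided exact permutation p = 0.0857 and 0.629).

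HW_35545_g, the member with the best hit DFL2, was not called by the quasi-likelihood test in any comparison with water. It held 9.27, 4.62, 3.95 and 8.95 CPM in water at 6 HAT and 2.28, 0, 1.72 and 1.28 CPM after 2,4-D, where every library was below water (log2 fold change -2.35, SE 0.92, adjusted p = 0.107). The adjusted p was 0.0226 in DESeq2, 0.0429 in edgeR's exact test and 0.0409 without 2,4-D replicate 2, the library at 0. The paper lists the gene as lower after 2,4-D at 6 HAT. After dicamba it held 0.963, 3.37, 54.7 and 1.98 CPM, so that a single library set its mean: the log2 fold change of 1.17 (SE 1.03) became -1.64 without Dicamba replicate 3. After halauxifen-methyl the libraries spread from 0.651 to 16.2 CPM, and the log2 fold change was -0.11 (SE 0.87).

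HW_2486_g, the member with the best hit JAR1, moved the other way. At 6 HAT it held 53.0, 44.2, 57.9 and 53.1 CPM in water, 22.1, 17.7, 23.97 and 18.6 CPM after 2,4-D, 29.0, 25.7, 21.7 and 26.4 CPM after dicamba, and 28.7, 29.6, 25.7 and 36.1 CPM after halauxifen-methyl. All herbicide libraries were below all water libraries. Its level fell by 1.33 (SE 0.16, adjusted p = 0.000106), 1.00 (SE 0.19, adjusted p = 0.004998) and 0.80 (SE 0.17, adjusted p = 0.0121) on the log2 scale by the quasi-likelihood test. In a quasi-likelihood fit of all 32 libraries the dicamba and halauxifen-methyl calls were lost (adjusted p = 0.0613 and 0.142). There the spread of each gene was estimated over all 8 groups. HW_28187_g, another gene with the best hit JAR1, had a higher level in water at 6 HAT (185 against 30.2 CPM per kb). It was not called against water at that time.

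**Figure D2:**
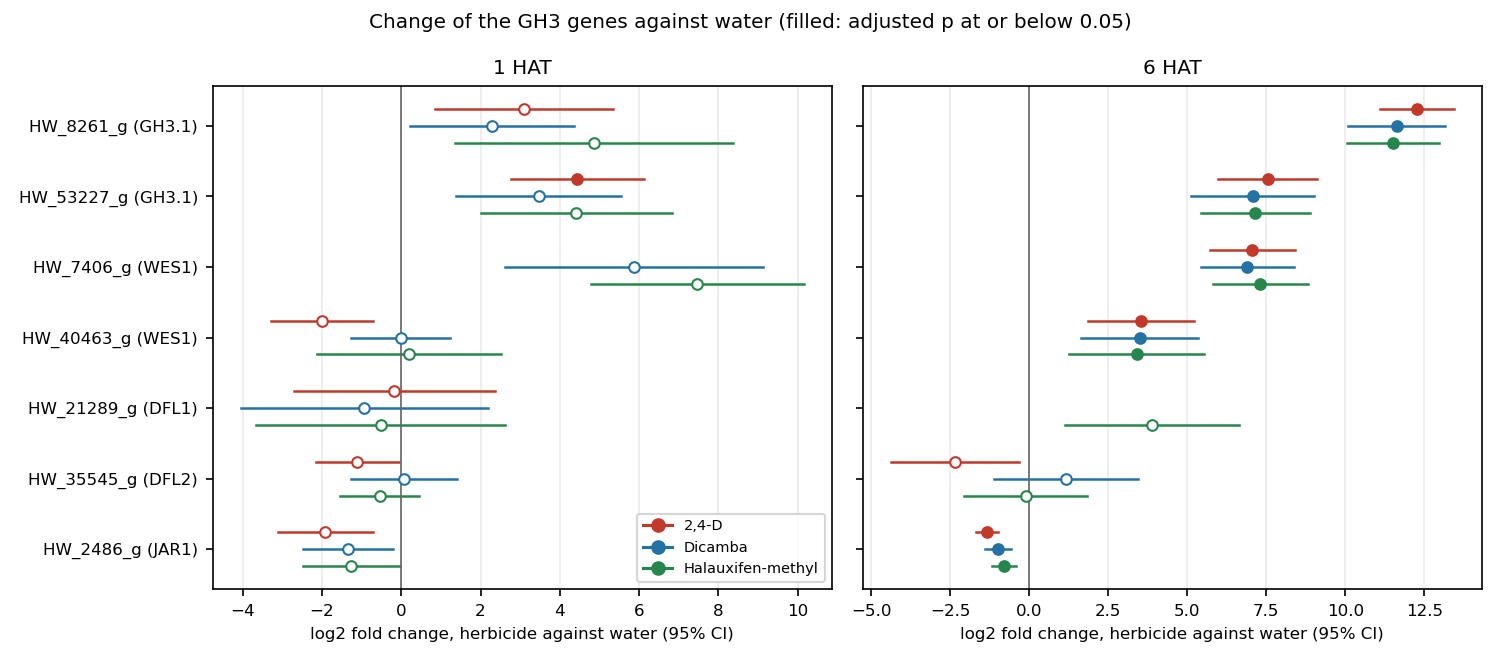
Log2 fold change of the GH3 genes against water at 1 HAT (left) and 6 HAT (right) with 95% confidence intervals, after 2,4-D (red), dicamba (blue) and halauxifen-methyl (green). Filled points passed an adjusted p of 0.05. HW_16576_g is not drawn because water was at 0, and gaps are genes below the count filter. At 6 HAT HW_8261_g lies near 12 and HW_2486_g between -1.33 and -0.80.

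At 1 HAT the response was uneven between plants. By chi-square over all genes, Halauxifen-methyl replicate 4 stood apart from the other libraries of its group. The chi-square per degree of freedom of its counts was 131 to 262 against each of them, while they differed from each other by 43.8 to 85.9. The correlations of log2 CPM overlapped, at 0.827 to 0.908 with it and 0.880 to 0.929 among the others. Dicamba 1 HAT replicate 4 (chi-square 107.7 to 166.5, against 47.2 to 80.8 among the others) stood apart too. So did Dicamba 6 HAT replicate 3 (127 to 184, against 30.8 to 71.8). The normalization factor of Halauxifen-methyl replicate 4, 1.19, was the largest of the 16 libraries at 1 HAT. The part of this library in the halauxifen-methyl results of 1 HAT was not tested, and without it 0 members were called against water, as with it. In Halauxifen-methyl replicate 4, HW_50873_g (IAA29) was at 144 CPM, the highest of its group, and HW_49852_g (IAA13) at 81.5 CPM, the lowest. The water libraries of 1 HAT held 6.93 to 16.5 and 26.8 to 38.4 CPM of these genes. HW_53227_g was the single call among the 8 genes, higher after 2,4-D, where 0.898% of all tested genes were called higher. The paper, which kept calls shared by at least 2 of 3 methods, lists this gene as higher after all 3 herbicides at 1 HAT. It also lists HW_7406_g after dicamba and halauxifen-methyl, and HW_8261_g after 2,4-D and halauxifen-methyl. Complete separation of the libraries, above water, was found for 1, 2 and 1 of the members tested (2,4-D, dicamba and halauxifen-methyl), beside 3.9%, 5.06% and 1.96% of all tested genes, and below water for 2, 0 and 0, beside 4.67%, 5.46% and 1.32%. No member was called after dicamba, where 1.23% were called higher and 1.19% lower, or after halauxifen-methyl, where 0.176% were called higher and 0.0% lower. None was called lower after 2,4-D, where 0.919% of the tested genes were. Unadjusted p values under 0.05 were found for 5 of the 6 genes tested after 2,4-D, for 4 of 7 after dicamba and for 4 of 7 after halauxifen-methyl, beside 11.8%, 15.1% and 3.6% of all tested genes. DESeq2 called 3, 2 and 2 members higher for 2,4-D, dicamba and halauxifen-methyl, and 2 lower for 2,4-D. It gave 8, 6 and 8 of the members an adjusted p, and called 4.08%, 5.82% and 0.507% of all genes with one in either direction.

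HW_53227_g held 1.35, 1.42, 0.570 and 0 CPM in water at 1 HAT and 20.1, 26.3, 16.0 and 10.4 CPM after 2,4-D, a log2 fold change of 4.45 (SE 0.76, adjusted p = 0.0157). Without Water replicate 3 the adjusted p was 0.0686. After dicamba it held 3.09, 11.1, 18.4 and 4.55 CPM, all above water but not past the threshold (log2 fold change 3.47, SE 0.94, adjusted p = 0.0928). After halauxifen-methyl it held 38.8, 21.9, 9.64 and 1.26 CPM, and the last of these, replicate 4, lay within the water range (log2 fold change 4.41, SE 1.09, adjusted p = 0.429). Without that library the log2 fold change was 4.80 (adjusted p = 0.0918).

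HW_8261_g held 18.8, 3.01, 2.75 and 0.358 CPM in water at 1 HAT, and in replicate 1 was thus higher than in 3 of the 4 dicamba libraries. It held 10.8, 110, 69.5 and 23.9 CPM after 2,4-D, 18.4, 12.4, 77.4 and 13.2 CPM after dicamba and 386, 309, 37.3 and 0.421 CPM after halauxifen-methyl. Each herbicide group overlapped with water. The log2 fold changes of 3.102 (SE 1.01), 2.29 (SE 0.95) and 4.87 (SE 1.58) did not pass the threshold (adjusted p = 0.221, 0.278 and 1.00). With a library left out they ran from 2.49 to 4.74, from 1.23 to 3.93 and from 4.23 to 6.52. The highest value of each was that without Water replicate 1, and the lowest those without 2,4-D replicate 2, Dicamba replicate 3 and Halauxifen-methyl replicate 1. Without Halauxifen-methyl replicate 4 the log2 fold change was 5.28 (adjusted p = 0.223), and in the fit of all 32 libraries the halauxifen-methyl value passed the threshold (4.85, adjusted p = 0.0372).

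HW_7406_g had 1 count in total in the 4 water libraries of 1 HAT. It had 97 counts after 2,4-D (0 to 5.03 CPM), 119 after dicamba (1.02 to 2.20 CPM) and 361 after halauxifen-methyl (1.41 to 10.1 CPM). The ratios to water were 69.2 (95% exact counting interval 12.1 to 2760), 85.1 (15.0 to 3390) and 278 (49.5 to 10991), which cover counting error only. Of the 97 counts after 2,4-D, 83 were in replicate 1, and without it the ratio was 12.7 (1.94 to 539). All dicamba and halauxifen-methyl libraries were above water, and the adjusted p of 0.0688 and 0.0516 missed the threshold, the latter passing it without Halauxifen-methyl replicate 2 (0.0478) and at 0.192 without replicate 4. Both passed it in DESeq2 (adjusted p = 0.000998 and 2.9e-06), in edgeR's exact test (0.00138 and 5.46e-06) and in the fit of all 32 libraries (0.0192 and 0.0021). HW_16576_g reached 0.425, 5.59, 4.78 and 0.468 CPM after 2,4-D at 1 HAT, at least 12.3-fold above a water level of 3 counts per library. After dicamba it was found in 1 library, at 2.40 CPM, and after halauxifen-methyl in 2, at 1.62 and 1.61 CPM.

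After 2,4-D and halauxifen-methyl at 1 HAT, the libraries highest in HW_8261_g were not those highest in HW_7406_g. Halauxifen-methyl replicate 4 had the lowest level of its group in HW_8261_g (0.421 CPM) and HW_53227_g (1.26 CPM) and the highest in HW_7406_g (10.1 CPM). After 2,4-D, replicates 2 and 3 were the highest in HW_8261_g (110 and 69.5 CPM) and the lowest in HW_7406_g (0.247 and 0 CPM). The order of the libraries in HW_7406_g was that in HW_43852_g, a DFL1 gene outside the 8, in the halauxifen-methyl group, where HW_43852_g held 3.88, 2.08, 9.64 and 16.0 CPM, but not in the dicamba group, where HW_7406_g held 1.60, 1.02, 1.44 and 2.20 CPM and HW_43852_g 4.21, 5.86, 8.72 and 11.7 CPM. With 4 libraries a group these orders are given without a test.

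**Figure D3:**
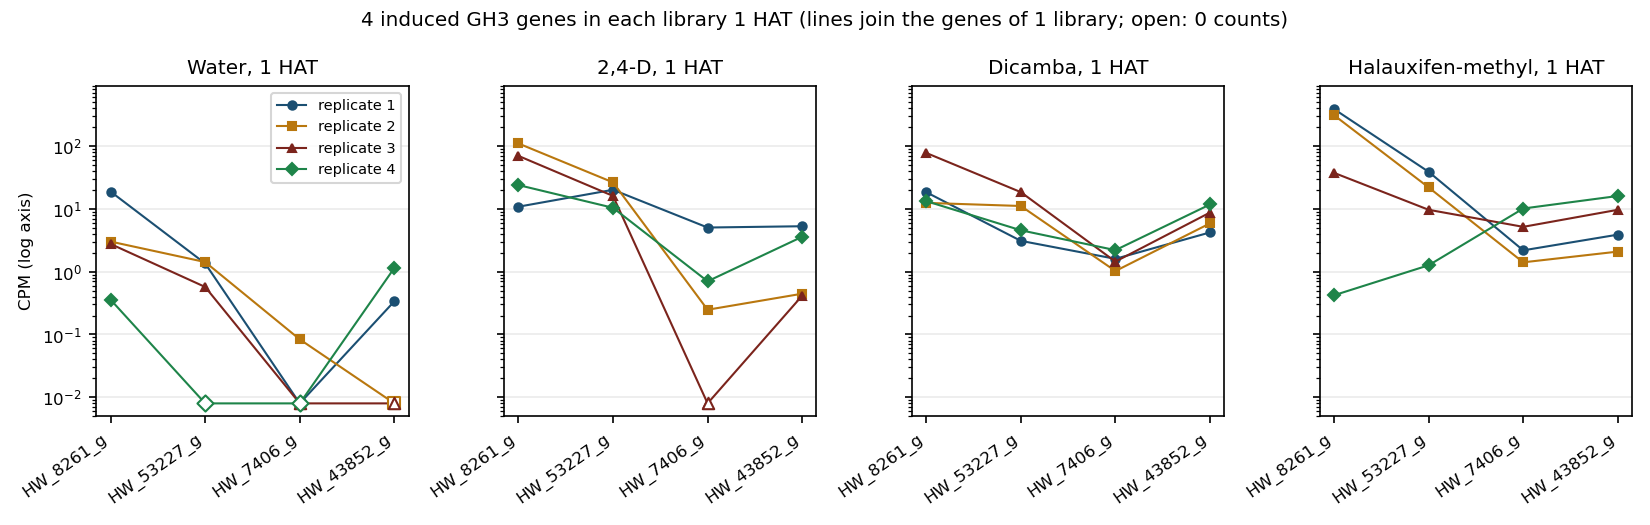
Levels of HW_8261_g, HW_53227_g, HW_7406_g and HW_43852_g in each library at 1 HAT, in CPM on a log axis, 1 panel per treatment. Lines join the genes of 1 library and open symbols are 0 counts. In the halauxifen-methyl panel the lines cross: replicate 4 is lowest for HW_8261_g at 0.421 CPM and highest for HW_7406_g at 10.1 CPM.

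HW_40463_g and HW_2486_g lay below water after 2,4-D at 1 HAT without passing the main test. HW_40463_g held 3.71, 3.34, 2.66 and 3.146 CPM in water and 0.728, 0.891, 0.452 and 1.09 CPM after 2,4-D, without overlap (log2 fold change -1.998, SE 0.58, adjusted p = 0.154). HW_2486_g held 35.5, 249, 43.7 and 108 CPM in water and 27.0, 33.0, 23.0 and 30.1 CPM after 2,4-D, also without overlap (log2 fold change -1.92, SE 0.54, adjusted p = 0.136). Water replicate 2 was the highest of these libraries, and without it the log2 fold change of HW_2486_g was -1.13. Both missed the threshold of the quasi-likelihood test and passed it in DESeq2 (adjusted p = 0.0113 and 0.00267) and in edgeR's exact test (adjusted p = 0.0301 and 0.0188). After dicamba and halauxifen-methyl, HW_40463_g was at 1.49 to 4.38 and 0 to 8.64 CPM and HW_2486_g at 33.2 to 55.8 and 30.5 to 60.9 CPM, all overlapping with water. HW_21289_g and HW_35545_g overlapped with water after each herbicide, with log2 fold changes of -0.17, -0.93 and -0.52 for HW_21289_g and of -1.11, 0.07 and -0.54 for HW_35545_g (2,4-D, dicamba and halauxifen-methyl).

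Whether the change against water differed between 1 and 6 HAT was tested as an interaction in 16 libraries per herbicide. The change of HW_8261_g was greater at 6 than at 1 HAT by 9.21 (SE 1.26, adjusted p = 0.000102) after 2,4-D, 9.37 (SE 1.28, adjusted p = 0.000148) after dicamba and 6.65 (SE 1.75, adjusted p = 0.0325) after halauxifen-methyl, on the log2 scale by the quasi-likelihood test. The change of HW_40463_g after 2,4-D, from below water to above it, was greater by 5.56 (SE 1.01, adjusted p = 0.00142). No other member was called, beside 5.71%, 3.34% and 3.41% of all genes called higher for 2,4-D, dicamba and halauxifen-methyl. The halauxifen-methyl interaction of HW_8261_g was lost without Water 1 HAT replicate 1 (adjusted p = 0.120), without Halauxifen-methyl 1 HAT replicate 3 (0.0659) or 6 HAT replicate 2 (0.0536), and without Water 6 HAT replicate 1, 3 or 4 (0.0552 to 0.0758). HW_16576_g gave no usable estimate because water was at 0 at both times. In water alone no member was called between 6 and 1 HAT, where 13.9% of all tested genes were, and 2 of the 5 tested, HW_8261_g and HW_35545_g, had an unadjusted p under 0.05, as did 25.6% of all tested genes. DESeq2 called 1 member, HW_8261_g, lower, beside 18.0% of all genes called in either direction.

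The herbicides were then compared with each other. Their rates differed, so the values describe the treatments as applied. At 6 HAT the highest libraries for HW_8261_g were 2,4-D replicate 1, 2,4-D replicate 2 and Dicamba replicate 1. HW_8261_g was higher after 2,4-D than after halauxifen-methyl by 0.74 (95% confidence interval 0.35 to 1.12, adjusted p = 0.0265) on the log2 scale, where 2.96% of all tested genes were called higher and 8.04% in either direction, and every 2,4-D library was above every halauxifen-methyl library, as for 6.85% of all tested genes. The adjusted p was 0.0845, 0.0593 and 0.0687 without 2,4-D replicate 1, 2 or 3, and 0.952 in the fit of all 32 libraries. Without Halauxifen-methyl replicate 4, HW_16576_g was called as well (adjusted p = 0.0348). The differences of HW_8261_g were 0.64 (0.12 to 1.16, adjusted p = 0.469) between 2,4-D and dicamba and 0.12 (-0.48 to 0.71, adjusted p = 0.952) between dicamba and halauxifen-methyl.

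No other difference between herbicides passed the threshold in these 6 comparisons of pairs, 3 at each time. At 6 HAT, 0.519% of all tested genes differed between 2,4-D and dicamba and 0.489% between dicamba and halauxifen-methyl. HW_16576_g was at 2.42 (0.29 to 4.56, adjusted p = 0.180) for 2,4-D minus halauxifen-methyl and 2.09 (-0.20 to 4.37) for dicamba minus halauxifen-methyl at 6 HAT. HW_2486_g was lower after 2,4-D than after halauxifen-methyl in every library, as were 8.7% of all tested genes, at a difference of -0.55 (-0.92 to -0.18, adjusted p = 0.0736). The differences of HW_7406_g were 0.16 (-0.35 to 0.66), -0.27 (-0.86 to 0.32) and -0.41 (-0.93 to 0.10), and those of HW_40463_g 0.03 (-0.58 to 0.64), 0.11 (-0.99 to 1.21) and 0.11 (-1.01 to 1.24), for 2,4-D minus dicamba, 2,4-D minus halauxifen-methyl and dicamba minus halauxifen-methyl. Those of HW_53227_g were 0.48 (-0.50 to 1.47), 0.39 (-0.28 to 1.05) and -0.08 (-0.99 to 0.83). HW_35545_g had the widest intervals, at -3.56 (-6.44 to -0.67, adjusted p = 0.465), -2.25 (-4.79 to 0.29) and 1.33 (-1.56 to 4.22), and the first of these was -0.72 without Dicamba replicate 3. HW_21289_g was at -1.50 (-3.25 to 0.25) for 2,4-D minus halauxifen-methyl and -2.11 (-4.60 to 0.39) for dicamba minus halauxifen-methyl. The intervals of HW_7406_g, HW_40463_g and HW_53227_g include differences in either direction for each pair, so that likeness between herbicides is not shown. At 1 HAT, where 0.208%, 0.475% and 0.355% of all tested genes differed, the intervals of HW_8261_g were wider, -0.80 to 2.44, -4.65 to 1.08 and -5.36 to 0.20 for the same pairs.

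**Figure D4:**
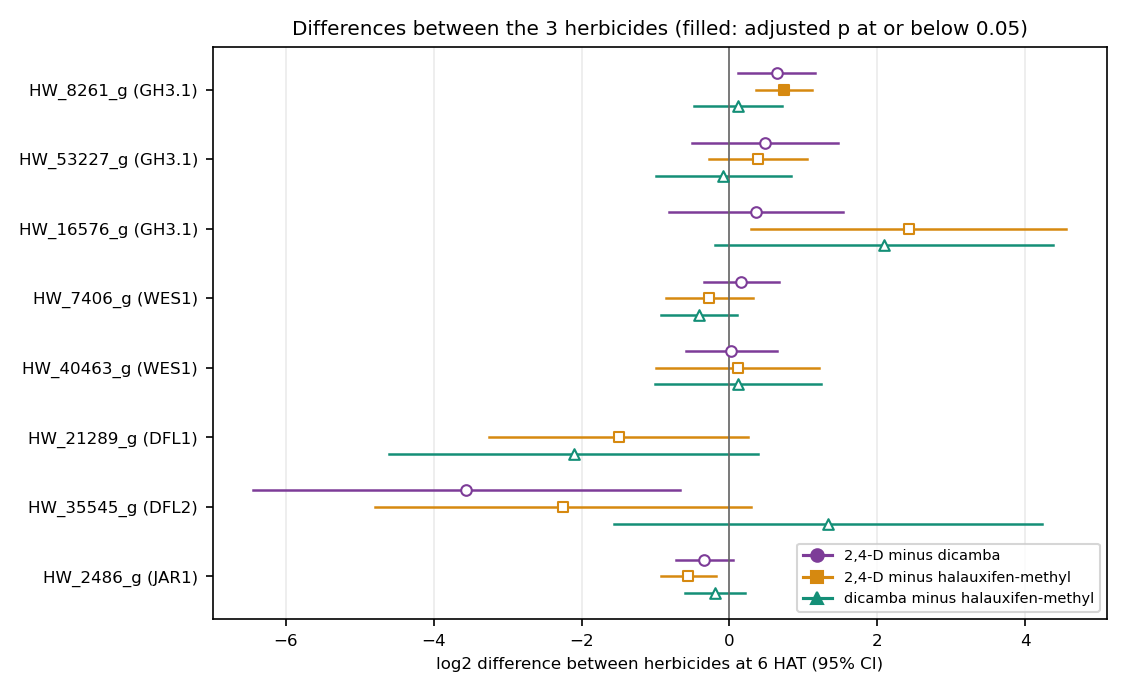
Log2 differences between pairs of herbicides at 6 HAT with 95% confidence intervals, for each member tested. The filled square, HW_8261_g for 2,4-D minus halauxifen-methyl at 0.74, is the one difference with an adjusted p at or below 0.05.

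Besides the 8 members, 11 genes had a GH3 best hit in the annotation, of which 7 had counts. HW_43852_g, with the best hit DFL1 and 1866 coding bases, held 0, 0.935, 0 and 1.33 CPM in water at 6 HAT. It held 196, 173, 93.5 and 193 CPM after 2,4-D, 167, 123, 83.2 and 136 CPM after dicamba and 180, 242, 189 and 188 CPM after halauxifen-methyl. No library overlapped with water, and the log2 fold changes of 8.14, 7.80 and 8.42 (SE 0.66, 0.78 and 0.77) passed the quasi-likelihood test with adjusted p of 6.83e-06, 0.000102 and 9.68e-05. HW_28187_g, with the best hit JAR1, was at 222 to 540 CPM over all 32 libraries, and at 6 HAT its log2 fold changes were 0.07, 0.04 and 0.10 (SE 0.13, 0.21 and 0.19), none past the threshold.

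HW_11310_g, the other gene with the best hit DFL2, was not called against water. Like HW_35545_g it was highest at 6 HAT in Dicamba replicate 3 (31.4 CPM) and Halauxifen-methyl replicate 3 (28.7 CPM). HW_51083_g and HW_51084_g, both with the best hit JAR1, are neighbouring models on 1 contig (12245 to 13724 and 13745 to 14455) with 438 and 920 counts in all, and were not called at either time. HW_30310_g (GH3.1) had 55 counts, HW_12362_g (DFL1) had 8, and the remaining 4 genes had none. Genes with the same best hit can share reads, and how the counting treated such reads is not given in the sources used here.

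Per kb of coding sequence, the summed level of the 19 genes was 201 to 260 CPM per kb in the water libraries of 6 HAT. It was 2399 to 3258 with 2,4-D, 1311 to 2783 with dicamba and 1573 to 2123 with halauxifen-methyl, without overlap with water. In water at 6 HAT HW_28187_g, with the best hit JAR1, made up 80.8% of the sum, HW_2486_g, with the same best hit, 13.2% and HW_8261_g 0.203%. After the herbicides HW_8261_g made up 83.9%, 78.5% and 75.0% (2,4-D, dicamba and halauxifen-methyl), and HW_28187_g 6.96%, 10.01% and 10.7%. HW_2486_g then stood at 0.432%, 0.794% and 0.937%. At 1 HAT the share of HW_8261_g was 1.11% in water, 10.9% with 2,4-D, 4.90% with dicamba and 26.7% with halauxifen-methyl, and the sums of the 4 groups overlapped (211 to 465 CPM per kb). The share in water was 0.329% without replicate 1, and that with dicamba was 2.29% without replicate 3. With a library left out it ran from 7.34% to 13.8% with 2,4-D and from 18.2% to 34.3% with halauxifen-methyl.

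**Figure D5:**
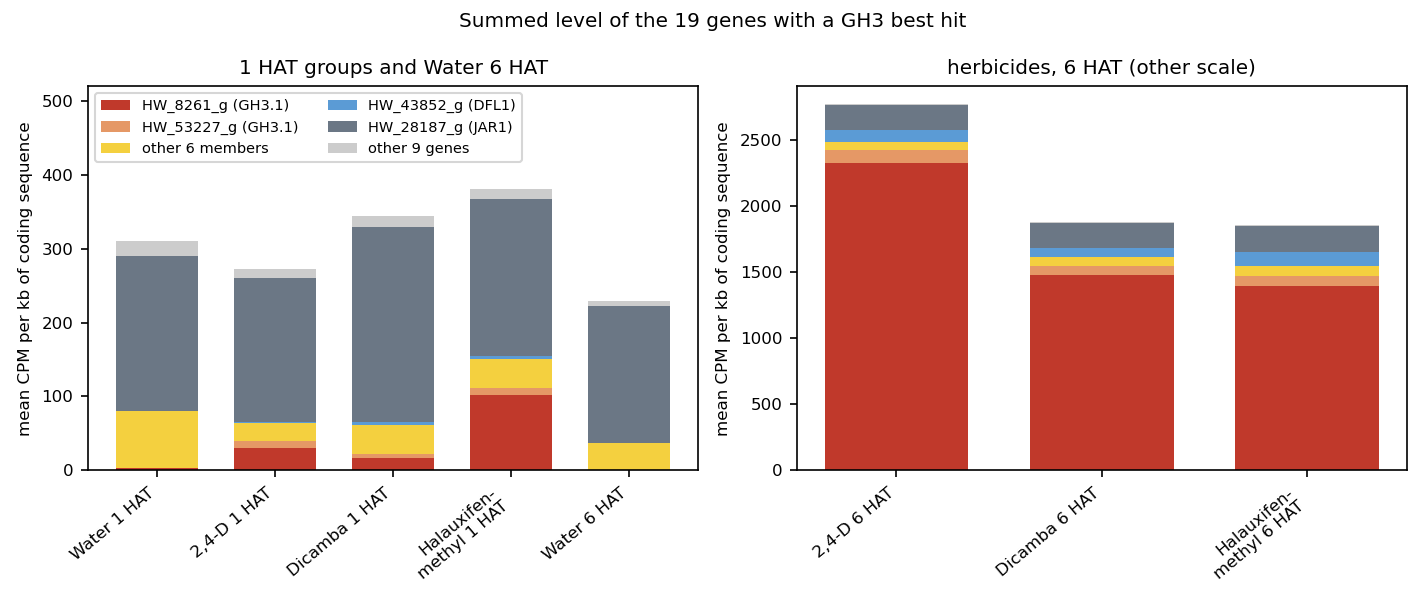
Mean CPM per kb of coding sequence of the 19 genes with a GH3 best hit, stacked by gene, for the 1 HAT groups and Water 6 HAT (left) and the herbicide groups at 6 HAT (right, on another scale). HW_28187_g makes up most of the left bars, and HW_8261_g 75.0% to 83.9% of the right bars.

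The genes whose 8 group means were most like those of HW_8261_g, by the root mean square difference of centred log2 CPM, were HW_18257_g (annotated as a DNA binding protein, 1.17), HW_43852_g (1.30), HW_34479_g (LBD16, a lateral organ boundaries regulator of lateral root formation, 1.55), HW_53227_g (1.57) and HW_37130_g (GLYI7, a glyoxalase, 1.59). The genes nearest to HW_7406_g were HW_43852_g (0.599), HW_34479_g (0.718) and HW_18257_g (0.755). HW_27793_g (ZFP7, a zinc finger protein, 0.920) and HW_25348_g (an integrase-type DNA-binding protein, 1.13) followed. This difference grows with the size of a change, so its values do not rank closeness between members. The Pearson correlation with the nearest gene was 0.984 for HW_8261_g and 0.987 for HW_7406_g. HW_2486_g was nearest to HW_47866_g, a MATE efflux protein (0.131), HW_14413_g, an alpha/beta-hydrolase (0.205), HW_17481_g (OMT1, an O-methyltransferase, 0.211), HW_39088_g (0.223) and HW_11963_g (0.242). The 8 means come from the same 32 libraries, and only genes past the count filter over all of them were searched.

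Other genes of auxin handling were counted in the same comparisons. Over all tested genes at 6 HAT, 10.3%, 5.64% and 8.55% were called higher after 2,4-D, dicamba and halauxifen-methyl, and 9.41%, 3.96% and 6.13% lower. At 6 HAT, 2 of the 6 tested amidohydrolase genes, which release hormones from amino acid conjugates, were higher after each herbicide, and 1 was lower after 2,4-D. The list medians were 0.10, 0.59 and 0.36. The risen genes both had the best hit ILL6, which in *A. thaliana* cleaves jasmonoyl-isoleucine. HW_8329_g was at 7.36 ± 3.69 CPM (SD, n = 4) in water and at 97.3 ± 13.3, 104 ± 15.1 and 171 ± 78.1 CPM after 2,4-D, dicamba and halauxifen-methyl, and HW_4597_g at 0.497 ± 0.810 and 13.02 ± 4.38, 17.3 ± 5.65 and 26.6 ± 11.8 CPM. Of the genes for auxin synthesis, 1 of 5, 1 of 5 and 1 of 4 tested was lower: HW_6780_g (TAR2, a tryptophan aminotransferase) was at 4.25 ± 2.05 CPM in water and at 0.393, 0.0545 and 0.299 CPM after the herbicides. Of the other genes of auxin inactivation, 1 was higher after each herbicide (of 4, 4 and 5 tested), and 1 was lower after 2,4-D.

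The AUX/IAA repressors, which share auxin control with the GH3 genes, were also called in most members at 6 HAT. Of 13 tested genes 12, 10 and 10 were higher and none lower, with list medians of 2.32, 2.39 and 2.45. Over all tested genes, 10.3%, 5.64% and 8.55% were higher and 9.41%, 3.96% and 6.13% lower. HW_50873_g (IAA29) went from 18.3 ± 12.3 CPM in water to 401 ± 63.0, 410 ± 103 and 825 ± 252 CPM. HW_27084_g and HW_32535_g (both IAA13) were at 3.101 ± 2.32 and 2.71 ± 1.87 CPM in water and at 26.2 to 58.5 CPM in the herbicide means. Among the 6, 7 and 7 tested activating ARFs, the factors that turn on auxin targets, 1 was higher and 1 lower after each herbicide: HW_54012_g (ARF19) rose from 34.5 ± 3.179 to 86.2 to 99.4 CPM, and HW_35548_g (ARF8), on the contig of the DFL2 gene HW_35545_g, fell from 15.8 ± 9.77 to 2.63 to 3.23 CPM. Of 7 tested auxin receptor genes 1 was higher after 2,4-D, and 1 was lower after 2,4-D and after halauxifen-methyl. At 1 HAT, 3, 4 and 3 of 12 tested AUX/IAA genes were higher, and 1 was lower after dicamba. Over all tested genes, 0.898%, 1.23% and 0.176% were higher then, and 0.919%, 1.19% and 0.0% lower.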

How the data were processed

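Leaf RNA of 32 plants was sequenced, 4 in each of 8 groups of treatment and time. The authors deposited raw counts per gene; their notes name FastQC 0.11.2, STAR 2.5.2b and HTSeq 0.6.1, with genes predicted on a draft genome and named by the best *Arabidopsis thaliana* hit. How HTSeq treated strand and shared reads is not given in the sources used here. Groups came from the sample labels, and p-values measure the spread between separate plants.

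Each comparison was fitted on the 8 libraries of its groups (16 for interactions) with edgeR 4.0.16 in R 4.3.3: TMM normalization, genes kept by filterByExpr with a minimum count of 10, the quasi-likelihood test, and Benjamini-Hochberg adjustment over all genes tested, with a threshold of 0.05 and 95% confidence intervals. Each SE was taken as the absolute log2 fold change divided by the square root of the test's F value. The intervals built from it are symmetric, and so are approximate where a group had few counts. CPM used TMM sizes over all 32 libraries, and similarity of pattern used log2 CPM with a prior count of 2. The exact permutation test of 4 against 4 libraries, two-sided, cannot go below p = 0.0286. Bounds against groups at 0 used 3 counts in each library. Intervals from counts cover counting error only.

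The text names all 8 members, other GH3 genes with counts, up to 3 genes of each other list (those with the greatest mean change among genes called after all 3 herbicides at 6 HAT), and the 5 genes most alike to each of 3 members. The AP3 gene and the IAA13 gene HW_49852_g were named after their values were seen. The members and lists were chosen with earlier results of these data known. The alternatives were DESeq2 1.42.0, edgeR's exact test, DESeq2 size factors, other count filters, a fit of all libraries, the replicate number as a block, and each library left out. After the data were seen, levels at 1 HAT were also recomputed without single libraries. No sequences of the members are shown.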

Additional observations from a re-analysis of the deposited data

Results flagged for a closer look

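In 8 of 62 sets of 4 libraries of a member, 1 library stood far from the other 3 by Dixon's criterion, which chance meets in about 1 in 20 sets of values without ties or skew. All 8 were high. HW_8261_g stood at 18.8 CPM in Water 1 HAT replicate 1 and at 77.4 CPM in Dicamba 1 HAT replicate 3. HW_7406_g stood at 0.0836 CPM, a single count, in Water 1 HAT replicate 2 and at 5.03 CPM in 2,4-D 1 HAT replicate 1. HW_16576_g stood at 2.40 CPM in Dicamba 1 HAT replicate 1, and HW_40463_g at 18.9 CPM in 2,4-D 6 HAT replicate 1. For HW_7406_g in Water 1 HAT and HW_16576_g in Dicamba 1 HAT the other 3 libraries were at 0, so that any count met the criterion. HW_21289_g stood at 1.52 CPM in Dicamba 6 HAT replicate 1, and HW_35545_g at 54.7 CPM in Dicamba 6 HAT replicate 3.

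The change against water differed between 6 and 1 HAT in 4 cases, by the interaction in edgeR's quasi-likelihood test. For HW_8261_g the log2 difference between the times was 9.21 for 2,4-D, 9.37 for dicamba and 6.65 for halauxifen-methyl. For HW_40463_g it was 5.56 after 2,4-D, where the 1 HAT libraries lay below water and the 6 HAT libraries above it. Why these differed was not tested.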

How the results depend on the processing

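At 6 HAT the counts of members called higher (5, 5 and 4 for 2,4-D, dicamba and halauxifen-methyl) moved by at most 1.5 times except where 10 counts were asked of every library, which left 1, 2 and 2 members to test and called 0 higher for each herbicide. With each library left out they were 5 to 5, 4 to 5 and 3 to 5. The count called lower (1 each) was 2 for 2,4-D in DESeq2 and the exact test, 1 to 2 with a library left out, and 0 for dicamba and halauxifen-methyl in the fit of all libraries. At 1 HAT, members called higher after 2,4-D (1) were 3 in DESeq2, 2 without a filter, 0 with 10 counts everywhere, 2 in the fit of all libraries and 0 to 1 with a library left out. Those called lower (0) were 2 in DESeq2, 2 in the exact test and 1 without a filter, with 10 counts everywhere and in the fit of all libraries. Dicamba (0 higher) gave 2, 2, 1 and 2 in DESeq2, the exact test, no filter and the fit of all libraries, the last with 1 lower. Halauxifen-methyl (0 higher) gave 2, 2, 1 and 3, 1 with the block and 0 to 1 with a library left out. The 1 member higher after 2,4-D than halauxifen-methyl at 6 HAT became 0 in the fit of all libraries and with the block, and 0 to 2 with a library left out. DESeq2 called 1 member lower after 2,4-D than dicamba at 1 HAT. In water over time, 1 was lower in DESeq2 and in the fit of all libraries, and 0 to 1 with a library left out. With 10 counts everywhere the interactions called 0. The dicamba interaction (1) was 2 in DESeq2, 3 without a filter and 1 to 2 with a library left out, the halauxifen-methyl one (1) 0 to 1 and the 2,4-D one (2) 2 to 3. Shares over all tested genes are not given for these settings, except for DESeq2 against water at 1 HAT and in water over time. Whether the counts of members moved more than those of all genes was therefore not tested. The cause of these shifts was not tested.

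Same-numbered replicates did not pair throughout (r of their deviations -0.237 to 0.339, and in no comparison all above 0.1). Between the 1 HAT groups, r ran from 0.0406 to 0.339 for replicate 4, positive in every pair, and from -0.237 to 0.214 for replicate 1. Whether the plants of replicate 4 shared a condition was not tested. With the replicate number as a block, the adjusted p of HW_40463_g at 6 HAT was 0.0786 for dicamba and 0.126 for halauxifen-methyl. The log2 fold change turned to 0.56 for HW_21289_g (2,4-D, 1 HAT), -0.16 and -0.83 for HW_35545_g (dicamba, 1 and 6 HAT) and -0.61 for HW_40463_g (halauxifen-methyl, 1 HAT).

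With a library left out, log2 values that were not called changed sign. At 1 HAT these were HW_21289_g (-0.78 to 0.76, -2.29 to 0.024 and -0.97 to 0.43 for 2,4-D, dicamba and halauxifen-methyl), HW_35545_g (-0.34 to 0.62 for dicamba, -0.81 to 0.0090 for halauxifen-methyl) and HW_40463_g (-0.21 to 0.22 and -0.71 to 0.62 for the same). At 6 HAT HW_35545_g ran from -1.64 to 1.56 for dicamba and from -1.17 to 0.27 for halauxifen-methyl. Between herbicides at 6 HAT, dicamba minus halauxifen-methyl ran from -1.52 to 2.36 (HW_35545_g), -0.20 to 0.69 (HW_40463_g), -0.47 to 0.17 (HW_53227_g) and -0.17 to 0.26 (HW_8261_g), and HW_40463_g from -0.20 to 0.25 for 2,4-D minus dicamba and -0.20 to 0.71 for 2,4-D minus halauxifen-methyl. On plain library totals, 2 of 64 group means moved by over 1 SD, HW_7406_g (69.2 CPM) and HW_2486_g (30.5 CPM), both in Dicamba 6 HAT. By Pearson correlation 1, 2 and 3 of the 5 genes nearest to HW_8261_g, HW_7406_g and HW_2486_g stayed. Depth limits HW_16576_g, HW_21289_g and the water levels of the induced genes, which rest on few counts.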

Other observations

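Genes around jasmonoyl-isoleucine, the product of JAR1, were counted beside HW_2486_g, the member with the best hit JAR1. HW_28187_g, with the same best hit and a higher level per kb, was not called at 6 HAT. At 6 HAT, 4 of the 9 tested genes of the jasmonate receptor and its JAZ repressors were higher after each herbicide and none lower, with list medians of 0.56, 0.57 and 0.80 for 2,4-D, dicamba and halauxifen-methyl, beside 0.02, 0.06 and 0.05 over all tested genes. HW_42131_g (TIFY10B) was at 14.1 ± 10.1 CPM (SD, n = 4) in water and at 280 ± 129, 396 ± 164 and 733 ± 367 CPM after the herbicides. HW_3107_g (JAZ6) was at 9.38 ± 4.78 CPM in water and at 95.6 ± 50.7, 89.8 ± 37.1 and 256 ± 118 CPM, and HW_43723_g (JAZ10) was at 1.24 ± 1.41 CPM in water and at 7.62 ± 1.75, 20.7 ± 26.3 and 58.6 ± 24.6 CPM. At 1 HAT none of these 9 genes was higher, and 4, 4 and 0 were lower. Of all tested genes, 10.3%, 5.64% and 8.55% were higher at 6 HAT. At 1 HAT, 0.898%, 1.23% and 0.176% were higher, and 0.919%, 1.19% and 0.0% lower.

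Of the genes for jasmonate synthesis, 3 of 15, 2 of 16 and 4 of 17 tested were higher at 6 HAT, and 3, 0 and 0 lower, with list medians of -0.80, 0.90 and 0.57. Over all tested genes, 10.3%, 5.64% and 8.55% were higher and 9.41%, 3.96% and 6.13% lower. In water alone, 6 of 15 tested synthesis genes and 5 of the 9 receptor and JAZ genes were lower at 6 than at 1 HAT and none higher, with list medians of -0.98 and -0.72, beside 13.9% of all tested genes called in either direction. HW_8476_g (AOC3, an allene oxide cyclase) rose from 212 ± 21.4 CPM to 319 ± 25.7, 398 ± 68.8 and 676 ± 237 CPM, and HW_15201_g (OPR3, an oxophytodienoate reductase) from 50.8 ± 10.7 CPM to 84.7 ± 4.79, 85.3 ± 3.99 and 107 ± 22.6 CPM. At 1 HAT none of 16 tested was higher, and 5, 3 and 0 were lower. Of all tested genes, 0.898%, 1.23% and 0.176% were higher then, and 0.919%, 1.19% and 0.0% lower. Of 3 tested genes of jasmonoyl-isoleucine turnover, 1 was higher after each herbicide at 6 HAT, and 0, 1 and 1 were lower. The list medians were -2.01, -1.65 and -1.89. The risen gene, HW_17233_g (CYP94C1, an oxidase of jasmonoyl-isoleucine in *A. thaliana*), was at 0.0412 ± 0.0825 CPM in water and at 48.9 ± 7.19, 23.8 ± 10.4 and 25.6 ± 10.8 CPM after the herbicides. Its water mean lies below the level that 3 counts in a library correspond to.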
